A study of Mus musculus with 12 samples.

Results

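Perineuronal nets are lattices of extracellular matrix around the cell bodies and proximal dendrites of some neurons, best known around parvalbumin interneurons and, in the hippocampus, around pyramidal cells of area CA2. Their core is hyaluronan, to which chondroitin sulfate proteoglycans of the lectican family bind. Link proteins hold that bond in place and tenascins cross-link the lecticans. The same proteins, made by neurons, astrocytes and oligodendrocyte precursors, also form the looser matrix between cells, and mature nets are known to restrain plasticity. The genes described here were chosen by name for these roles and make up 9 of the 41743 genes in the table. They are the lecticans Acan, Bcan, Ncan and Vcan, the link proteins Hapln1 and Hapln4, the transmembrane proteoglycans Cspg5 and Ptprz1, and the glycoprotein Tnc.

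RNA came from the hippocampus of C57Bl/6 mice, all male and 12 weeks old when dosing was given. The toxicant group had received a mixture of DEET at 7.5 mg/kg, chlorpyrifos at 12.5 mg/kg and pyridostigmine bromide at 2.5 mg/kg under the skin on weekdays for 2 weeks, and the control group vehicle. DEET is an insect repellent, and the other two compounds inhibit cholinesterase. The comparison asks how the hippocampal transcriptome of this Gulf War exposure model differs at the end of dosing.

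The table has 12 libraries. The columns of control 4 and control 5 were identical throughout, so they differed by less than sampling noise and count as 1 sample here (control 4-5), for 5 control and 6 toxicant libraries. Reads behind the values came to 24.95 M to 34.9 M in control and 21.5 M to 28.4 M in toxicant libraries. The part of those reads that lay on annotated genes, called the genic read share here, was 78.4% to 89.5% in control and 76.8% to 83.8% in toxicant libraries, and control 2 had the lowest share among controls. All 10 hippocampal neuron markers looked up, among them Prox1 and Wfs1, passed the filter on low values. Choroid plexus markers, which come from tissue beside the hippocampus, summed to 17.0 to 2894 RPKM in control and 15.2 to 1810 RPKM in toxicant libraries, and their part in the results below was not tested.

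None of the 9 genes passed the test over the whole table. Values are RPKM (reads scaled to gene length in kilobases and to sequencing depth), and fold changes are toxicant minus control on the log2(RPKM + 0.5) scale, on which the change of a low gene comes out too small. Acan was the 1 gene of the 9 whose groups did not overlap, at 65.5% of the control mean in toxicant libraries. The other lecticans with high levels, Bcan and Ncan, had toxicant means at 88.2% and 84.4% of control. Vcan and Hapln1 went the other way, at 120% and 117% of control, within a wide spread among controls. In whole tissue, fewer cells of a type and less RNA per cell cannot be told apart.

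With limma and Benjamini-Hochberg adjustment, 0 of 13493 genes tested passed an adjusted p of 0.05 (0.0%), and so did 0 of the 9. An exact rank-sum permutation test and limma voom on recovered reads also called 0 genes. The smallest p the rank-sum test can give with these libraries is 0.00433. The 289 genes at that p were too few for any to pass the adjustment, so its 0 carries little weight. At an unadjusted limma p under 0.05 stood 2737 genes, or 20.3% of those tested, and 3 of the 9, namely Acan, Bcan and Ncan. All 3 were lower. Of all 13493 genes tested, 2288 (17.0%) had such a p and were lower. The log2 fold change was below 0 in 6 of the 9, where 70.0% of all tested genes were below 0, and 5 of the 9 lay below the all-gene median of -0.11. The 9 had a median of -0.16. The counts below 0 and below the all-gene median lie near those of the whole table. The 3 of 9 lower at an unadjusted p under 0.05 are a larger share than the 17.0%. With so few genes that difference was not tested. All 9 passed the filter of a mean of 0.5 RPKM, but Acan did so only through its control level.

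Leaving out control 2 altered the calls. Without it 4932 genes passed, 36.6% of 13468 tested (28.1% lower, 8.56% higher), and among them were 5 of the 9. Acan (log2 fold change -0.30, adjusted p = 0.0355), Bcan (-0.22, 0.0417), Ncan (-0.30, 0.0256) and Hapln4 (-0.32, 0.0421) were then called lower and Hapln1 higher (0.40, 0.0442), all by limma. Without control 2, a fit with the genic read share as a covariate called 0.0% of tested genes and one with each library's GC trend removed 6.66%, and neither called any of the 9. The remaining controls had shares of 83.1% to 89.5%, and toxicant libraries 76.8% to 83.8%. The share then nearly followed the group, so the covariate fit could hardly separate the 2. Its 0.0% carries little weight. Leaving out any of the other 10 libraries called none of the 9.

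**Figure D1:**
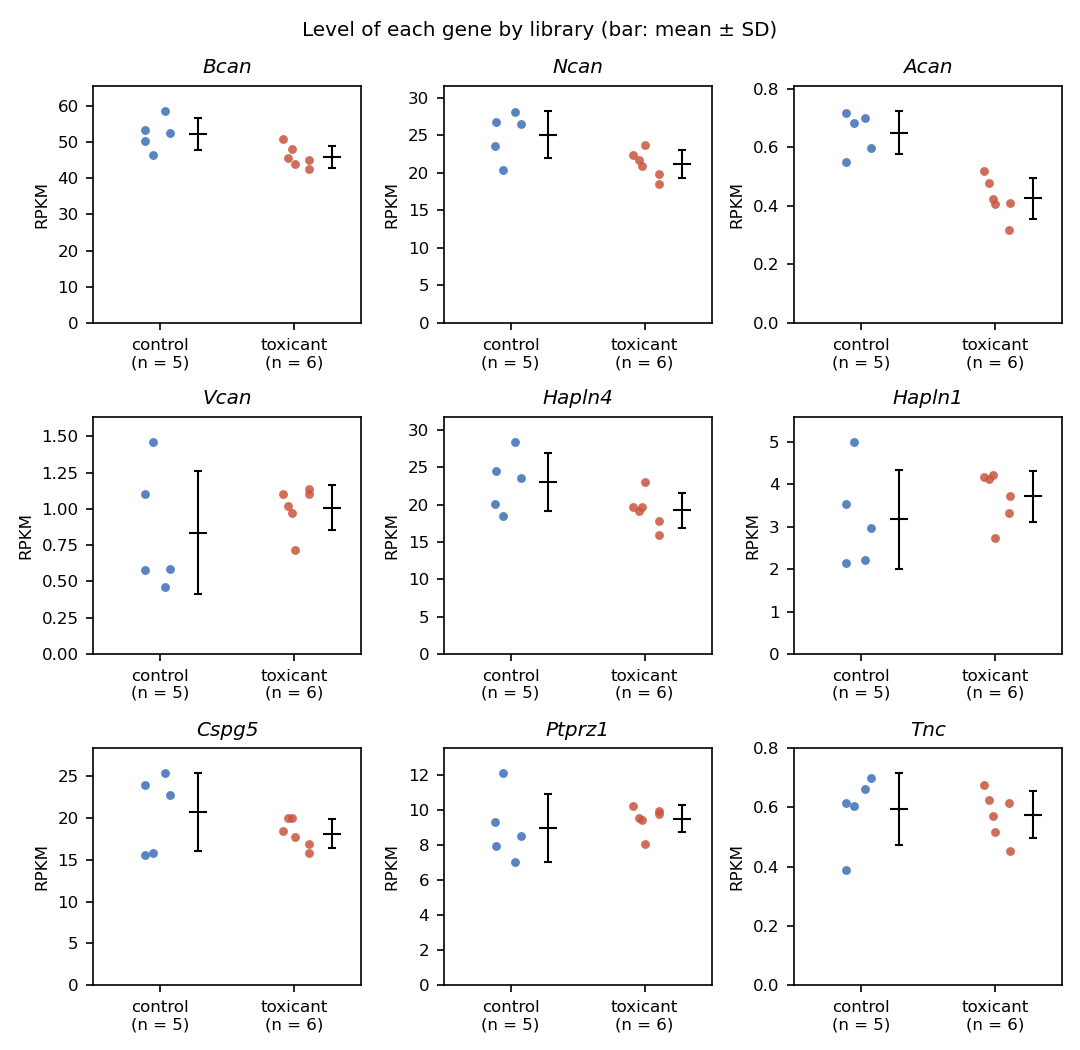
RPKM of each of the 9 genes in every library, by group (points: libraries, with control 4 and 5 as 1; bars: mean ± SD, n = 5 control and n = 6 toxicant). In Acan all 6 toxicant libraries lie below the lowest control, at 0.550 RPKM, while in the other 8 genes the groups overlap.

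Acan encodes aggrecan, the lectican most often used to mark nets. It was at 0.700, 0.685, 0.719, 0.550 and 0.599 RPKM in controls 1, 2, 3, 4-5 and 6. In toxicant libraries it was at 0.317 RPKM at the lowest, 0.418 at the median and 0.519 at the highest, so all 6 lay below every control. Such a gap downward was found in 2.03% of all tested genes. Since Acan passed the filter only through its control level, that share is not a test of Acan. The means were 0.651 ± 0.0727 (SD, n = 5) and 0.426 ± 0.0692 RPKM (SD, n = 6). On the log2 scale the difference was -0.31 ± 0.09 (SE, adjusted p = 0.199 by limma). Its 95% interval ran from -0.51 to -0.12, and 5.18% of tested genes had a lower value. That rank depends on the same filter and on the pseudocount of 0.5, which shrinks the fold changes of low genes. A smaller pseudocount of 0.1 gave -0.52 and voom on recovered reads -0.61, both without a call. With the GC trend removed it was -0.15.

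The depth behind Acan was low. Between 64 and 157 reads lay on the gene per library, so that counting alone gives a coefficient of variation of 9.63% at the mean depth, next to 11.2% among controls and 16.2% among toxicant libraries. Reads numbered 120 to 157 in controls and 64 to 96 in toxicant libraries. Counting error is therefore above 9.63% in toxicant libraries and below it in controls. The nearest libraries of the 2 groups were toxicant 3, with a 95% Poisson interval of 0.420 to 0.634 RPKM, and control 4-5, with one of 0.456 to 0.657 RPKM. These intervals cover counting error only and overlap. At the far ends, toxicant 4 had an interval of 0.244 to 0.405 RPKM and control 3 one of 0.602 to 0.852 RPKM.

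Bcan encodes brevican, the lectican of highest level here. It was at 58.4, 46.4, 53.3, 50.2 and 52.3 RPKM in the 5 controls, in the order given for Acan, and at 42.5 to 50.8 RPKM (median 45.3) in toxicant libraries. Of these 4 lay below the lowest control, which was control 2. For Bcan the log2 fold change was -0.18 ± 0.08 (SE, limma adjusted p = 0.244), with an interval of -0.35 to -0.0039.

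Ncan, which encodes neurocan, was at 28.2, 20.4, 26.8, 23.6 and 26.5 RPKM in controls and at 18.6 to 23.7 RPKM (median 21.3) in toxicant libraries. All 6 lay below the control mean but only 2 below control 2. For Ncan it was -0.23 ± 0.10 (SE, limma adjusted p = 0.229).

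Vcan encodes versican, a large lectican that oligodendrocyte precursors also make. Controls split into 3 low values, 0.461, 0.582 and 0.583 RPKM in controls 1, 3 and 6, and 2 high ones, 1.46 in control 2 and 1.102 in control 4-5. Toxicant libraries were at 0.715 to 1.14 RPKM (median 1.06), inside the range of controls. The coefficient of variation was 50.9% in control and 15.5% in toxicant libraries. The log2 fold change was 0.22 ± 0.17 (SE, limma adjusted p = 0.386), with an interval of -0.15 to 0.60. Versican isoforms that differ in their chondroitin sulfate domains could not be separated, since the table holds 1 value per gene. The antisense gene Gm4117 overlaps the 5′ end of Vcan and was under the filter. Whether reads were counted by strand is not given in the sources used here, and without strand its reads cannot be told from those of Vcan there.

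Among the link proteins, Hapln4, which binds brevican in nets, was at 28.3, 18.5, 24.5, 20.1 and 23.6 RPKM in controls and 15.99 to 23.1 RPKM (median 19.4) in toxicant libraries. Toxicant 1, at 23.1, was the 1 toxicant library above the control mean. For Hapln4 the fold change on the log2 scale was -0.25 ± 0.12 (SE, limma adjusted p = 0.252). Hapln1, the link protein best known from cartilage, was at 2.22, 4.98, 2.14, 3.54 and 2.96 RPKM in controls, with control 2 highest of all 11 libraries. Toxicant libraries lay at 2.73 to 4.21 RPKM (median 3.92), within that range, and the fold change on the log2 scale was 0.24 ± 0.18 (SE, limma adjusted p = 0.366).

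Cspg5 encodes neuroglycan C, a transmembrane proteoglycan of neurons and glia. Controls 1, 3 and 6 were at 25.4, 24.0 and 22.8 RPKM and controls 2 and 4-5 at 15.9 and 15.6, the reverse of the split in Vcan. Toxicant libraries were at 15.8 to 20.1 RPKM (median 18.1), from the level of the low controls to below the high ones, and the log2 fold change was -0.16 ± 0.14 (SE, limma adjusted p = 0.417). It was 0.0010 with quantile normalization.

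Ptprz1 encodes a receptor tyrosine phosphatase of astrocytes and oligodendrocyte precursors, whose secreted form is phosphacan. It was at 7.02, 12.1, 7.98, 9.34 and 8.51 RPKM in controls and at 8.09 to 10.3 RPKM (median 9.69) in toxicant libraries. Here too control 2 was the highest and control 1 the lowest of all 11. The log2 fold change was 0.10 ± 0.12 (SE, limma adjusted p = 0.560), with an interval of -0.16 to 0.35.

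Tnc encodes tenascin-C, a glycoprotein of the developing and injured brain that binds lecticans. It was at 0.663, 0.604, 0.614, 0.387 and 0.698 RPKM in controls and 0.453 to 0.675 RPKM (median 0.593) in toxicant libraries, with 3 on either side of the control mean. The log2 fold change was -0.019 ± 0.10 (SE, limma adjusted p = 0.896) and 0.041 after median-ratio scaling. Its interval of -0.24 to 0.20 does not show that the groups are alike. Between 78 and 189 reads lay on the gene per library.

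By level per length, the 9 genes fell into steps. Over the 11 libraries, Bcan averaged 48.8 ± 4.77 RPKM (SD), above 95.3% of tested genes and above Ncan in every library with no overlap of ranges. Ncan (23.0 ± 3.11), Hapln4 (21.0 ± 3.56) and Cspg5 (19.3 ± 3.44) had overlapping ranges, although Ncan was above Hapln4 in 10 of 11 libraries. Ptprz1 (9.28 ± 1.37) and Hapln1 (3.46 ± 0.894) each stood apart from their neighbours in the order. Vcan (0.931 ± 0.305), Tnc (0.584 ± 0.0960) and Acan (0.528 ± 0.135) had overlapping ranges. Acan lay just above the filter of 0.5 RPKM, so only 0.949% of tested genes were below it. The genes that did not pass the filter all averaged less than Acan.

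**Figure D2:**
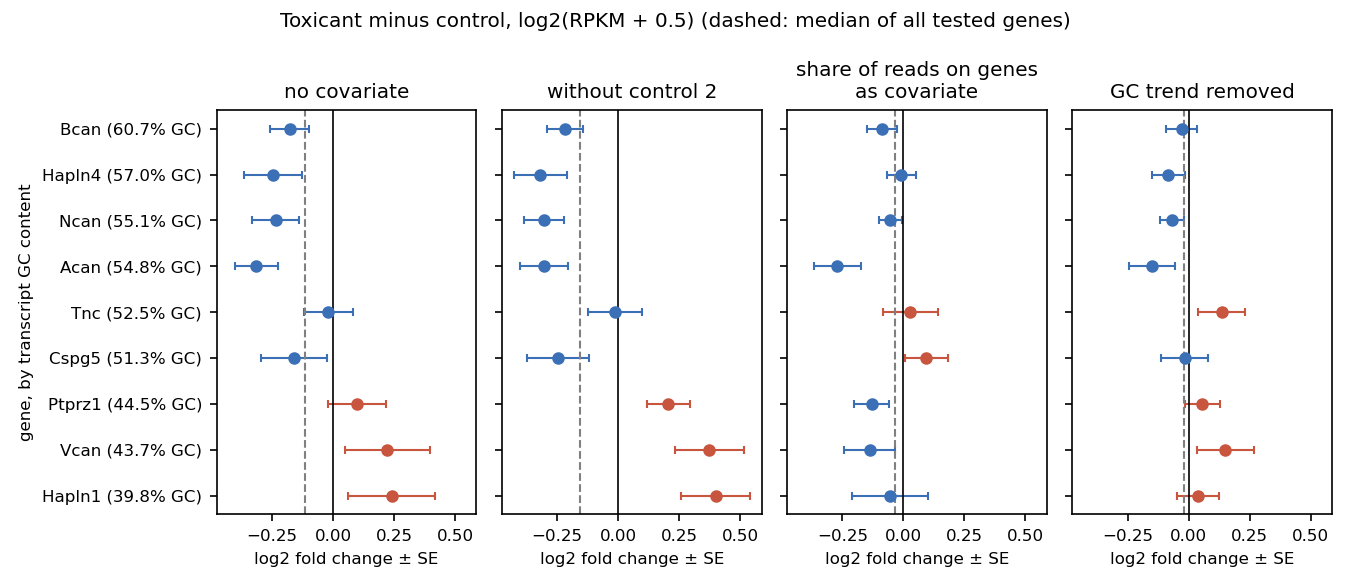
Log2 fold change ± SE (toxicant minus control) of the 9 genes, ordered by GC content of the longest transcript, in 4 fits (red: above 0; blue: below 0; dashed line: median of all tested genes in that fit). Without a covariate the 3 genes under 45% GC lie above 0 and the 6 others below, and with the genic read share as a covariate those 3 lie below 0.

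The sign of the difference followed base composition. Hapln1, Vcan and Ptprz1, whose longest GENCODE transcripts are 39.8% to 44.5% GC, had log2 fold changes above 0. The 6 genes at 51.3% to 60.7% GC had values below 0 in the fit without a covariate. Of these 6, Acan and Ncan stayed below 0 in every alternative run, while Tnc, Cspg5, Hapln4 and Bcan were above 0 in 1 or more of them. Over the whole table, 3375 of 6743 genes under 50% GC were above 0, against 676 of 6745 genes at or above it. Removing the GC trend of each library brought Hapln1 to 0.038, Bcan to -0.028 and Ncan to -0.069, and the median of the 9 to -0.017.

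The levels also went with the genic read share. The libraries with the highest shares, controls 1, 3 and 6 at 89.5%, 88.4% and 87.4%, had the 3 lowest Vcan values and the 3 highest values of Ncan, Cspg5 and Hapln4. Control 2, at 78.4%, had Ncan at 20.4 RPKM and Hapln4 at 18.5 RPKM, within the range of toxicant libraries. With the share as a covariate, the log2 fold changes were -0.053 for Ncan, -0.0081 for Hapln4 and -0.088 for Bcan. Vcan, Hapln1 and Ptprz1 were then at -0.14, -0.056 ± 0.16 (SE) and -0.13, and Cspg5 at 0.095. Without control 2 as well, Hapln1 was back above 0, at 0.16 ± 0.21 (SE). Acan was at -0.27 with the covariate (limma adjusted p = 0.289), and at -0.14 ± 0.13 (SE) with the covariate and without control 2 (limma adjusted p = 0.839). In that last fit the share nearly followed the group, so it could hardly separate the 2. With the GC trend removed and without control 2, Acan was at -0.075.

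**Figure D3:**
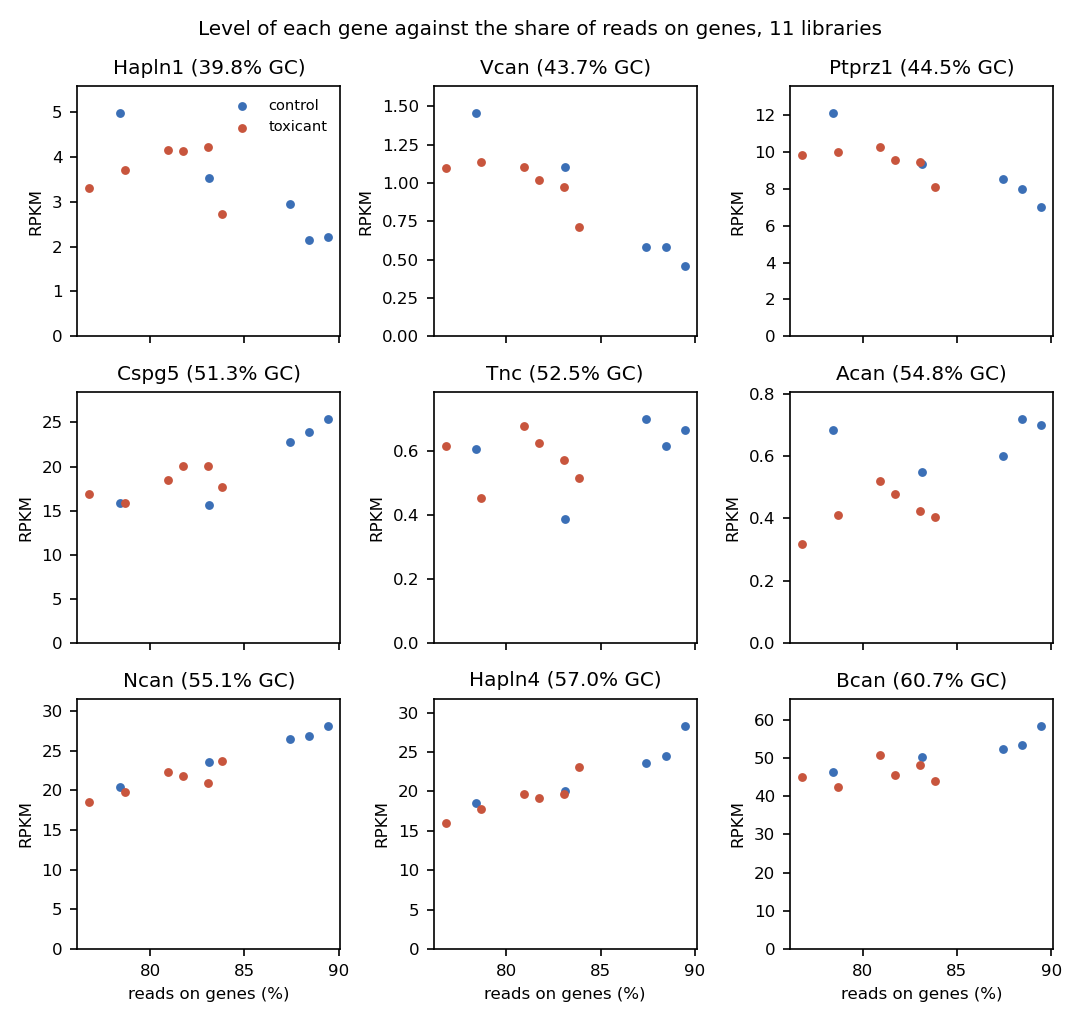
RPKM of the 9 genes (panels in order of GC content) against the percentage of reads on annotated genes in the 11 libraries, by group. Vcan is lowest and Ncan, Hapln4 and Cspg5 are highest in the 3 controls with 87.4% to 89.5% of reads on genes, and in Acan every control lies above all toxicant libraries.

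Shares within the lectican family do not depend on the scaling between libraries. Bcan made up 66.3% ± 0.813 (SD, n = 5) of the summed lectican RPKM among controls and 67.0% ± 1.92 (SD, n = 6) in the toxicant group, and Ncan 31.8% ± 1.44 and 30.9% ± 2.07. Leaving out 1 library moved the difference in percentage points between 0.313 and 1.39 for Bcan and between -1.63 and -0.452 for Ncan, with the farthest values from 0 reached without toxicant 1. The ranges of the groups overlapped for both genes. The Acan share was 0.728% to 0.994% in control and 0.488% to 0.696% in toxicant libraries, with no overlap. This gap rests on the same Acan values as the gap in RPKM, so it is not a separate result. The Vcan share was 0.526% to 2.12% in control and 1.04% to 1.78% in toxicant libraries. Set against Ncan, which has nearly the same GC content (55.1%, against 54.8% for Acan), Acan was at 2.62% ± 0.442 (SD, n = 5) of the Ncan level among controls and 2.01% ± 0.253 (SD, n = 6) in the toxicant group. The ranges of this ratio overlapped, with 2.26% as the lowest control and 2.32% as the highest toxicant value.

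**Figure D4:**
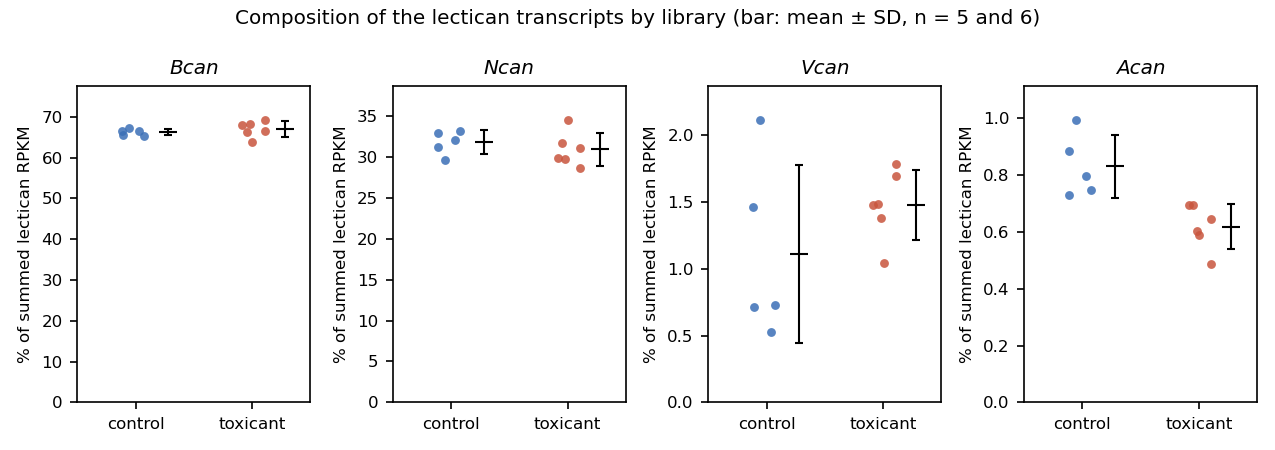
Share of each lectican in the summed RPKM of the 4 lecticans (%), by library and group (points: libraries; bars: mean ± SD, n = 5 control and n = 6 toxicant; each panel has its own scale). The toxicant libraries reach 0.696% at most for Acan, below the lowest control at 0.728%, and overlap with controls for the other 3.

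Each lectican gene lies next to a link protein gene. In GRCm38 (GENCODE M21, looked up by Ensembl ID, since the build the authors used is not given in the sources used here), Ncan (ENSMUSG00000002341) spans chromosome 8 from 70093085 to 70120873 and Hapln4 (ENSMUSG00000007594) from 70083457 to 70090862, 2222 bases apart. Vcan (ENSMUSG00000021614) spans chromosome 13 from 89655312 to 89742509 and Hapln1 (ENSMUSG00000021613) from 89539796 to 89611652, 43659 bases apart. Acan (ENSMUSG00000030607) spans chromosome 7 from 79053483 to 79115099, and the 3′ end of Hapln3, on the other strand, lies 2 bases past its 3′ end. Bcan (ENSMUSG00000004892) spans chromosome 3 from 87987531 to 88000230, with Hapln2 21519 bases away. No other gene of the table lay between the genes of any of these pairs. Tnc (ENSMUSG00000028364) is on chromosome 4, Ptprz1 (ENSMUSG00000068748) on chromosome 6 and Cspg5 (ENSMUSG00000032482) on chromosome 9.

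Over the 11 libraries, which share the differences in read share and base composition above, log2 levels had a Pearson r of 0.96 for Ncan with Hapln4 and 0.90 for Vcan with Hapln1. Genes that are not neighbours reached similar values, with 0.95 for Vcan with Ptprz1 and 0.91 for Hapln1 with Ptprz1. Between the GC-poor and GC-rich genes r was negative, at -0.87 for Ncan with Vcan and -0.89 for Hapln4 with Vcan. For Bcan with Hapln2 it was 0.63. Hapln3, at 0.328 ± 0.0831 RPKM in control (SD, n = 5) and 0.311 ± 0.0259 in toxicant libraries (SD, n = 6), was under the filter and did not show the gap seen in Acan.

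The promoters of Acan and Vcan are shown because these lecticans of low level had the lowest and the highest fold change of the family. Each line gives the 250 bases before the RefSeq start in GRCm38.p6, 5′ to 3′ on the gene's strand, at chr7:79052976-79053225 (plus strand) for Acan and chr13:89742513-89742762 (minus strand) for Vcan. Capitals mark matches on either strand to the GC box GGGCGG and the CCAAT box CCAAT.
Acan: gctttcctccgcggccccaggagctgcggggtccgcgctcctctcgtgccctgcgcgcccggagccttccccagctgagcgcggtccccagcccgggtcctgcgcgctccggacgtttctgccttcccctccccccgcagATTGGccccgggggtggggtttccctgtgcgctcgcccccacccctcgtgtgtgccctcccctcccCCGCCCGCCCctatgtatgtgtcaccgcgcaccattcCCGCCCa
Vcan: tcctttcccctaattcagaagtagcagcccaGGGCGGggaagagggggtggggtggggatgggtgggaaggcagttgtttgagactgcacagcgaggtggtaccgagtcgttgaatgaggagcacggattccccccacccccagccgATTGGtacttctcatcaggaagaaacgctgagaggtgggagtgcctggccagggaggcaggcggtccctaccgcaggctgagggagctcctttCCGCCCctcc
The Acan window is 74.4% GC with 26 CpG dinucleotides, above 95.4% of all promoter windows in GC content, and holds 3 GC boxes, of which 2 overlap, and 1 CCAAT box. The Vcan window is 62.4% GC with 10 CpG, and holds 2 GC boxes and 1 CCAAT box. A GC box is found in 32.7% and a CCAAT box in 33.8% of all 32851 windows of this length. Neither window holds the TATA box TATAAA or the E-box CACGTG, which 12.4% and 6.02% of windows hold. Of the 9 genes, 7 were found in the promoter table, all but Hapln4 and Cspg5.

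The genes whose log2 levels were most like each of the 9 over the 11 libraries were found among 12345 tested genes with a proper name. For Acan they were Tle4 (Pearson r = 0.93) and Mex3b (0.92), for Bcan Cxxc1 (0.98) and Ddx51 (0.98), and for Ncan Lrrc4 and Ppp2r2c (0.99 each). For Vcan they were Zfp280c (1.00) and Zkscan8 (0.99), for Hapln1 Micu3 and Smim10l1 (0.97 each), and for Hapln4 Fam171a1 and Epdr1 (0.99 each). For Cspg5 they were Lhx2 and Frs3 (0.99 each), for Ptprz1 Ercc6l2 and Ano3 (0.98 each), and for Tnc Galnt14 (0.89) and Pfkp (0.87). The values are descriptions of 11 libraries. Tle4 and Mex3b had log2 fold changes of -0.26 ± 0.07 and -0.40 ± 0.09 (SE). Since r was taken over both groups together, choosing by it favours fold changes in the direction of Acan.

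Other genes of the net and its matrix were described from 5 lists, and 0 genes of any list passed limma's test over the whole table. Without control 2, where 36.6% of all tested genes were called, calls were made for 0 of 4 other net components, 7 of 20 chain synthesis genes, 9 of 17 proteases and inhibitors, 4 of 14 receptors and partners, and 6 of 18 other proteoglycans. All but 1 chain synthesis gene and 1 other proteoglycan of those were lower. Of 9 other net components, 4 passed the filter, 3 of them below 0 and 1 above, with a median of -0.11. Hapln2, the link protein of nodes of Ranvier, was at 8.73 ± 0.492 and 7.54 ± 1.25 RPKM (log2 fold change -0.21 ± 0.10 SE). The neuronal pentraxin Nptx2 had -0.19 ± 0.18, and Tnr, the tenascin that cross-links lecticans in nets, 0.075 ± 0.12. The hyaluronan synthases Has1, Has2 and Has3 were all under the filter. Has3, the highest, was at 0.472 ± 0.0659 RPKM in control (SD, n = 5) and 0.364 ± 0.0760 in toxicant libraries (SD, n = 6), with 4 of 6 below the lowest control.

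Enzymes that build and sulfate chondroitin sulfate chains were tested in 20 of 22 cases, with 16 below 0, 4 above and a median of -0.17. Of all tested genes, 70.0% were below 0. Fitting the genic read share alongside group moved the list median to -0.019 (11 of 20 below 0). Once GC trends were taken out it stood at -0.032 (13 below), and without control 2 at -0.25 (16 below). At an unadjusted limma p under 0.05, 6 genes were lower in the first fit. That count was 0 with the covariate, 0 with GC trends taken out and 13 without control 2. The sulfotransferases Ust and Chst14 had log2 fold changes of -0.32 ± 0.13 and -0.35 ± 0.14, and the chain polymerase Chsy1 -0.20 ± 0.08 (SE, limma adjusted p = 0.223 to 0.225 for the 3). Chst13 was listed at 0 in every library.

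Proteases, hyaluronan-degrading proteins and their inhibitors were tested in 17 of 23 cases, with 15 below 0 and a median of -0.21. Fitting the genic read share alongside group moved this median to -0.093 (11 of 17 below 0). Once GC trends were taken out it stood at -0.052 (12 below), and without control 2 at -0.25 (16 below). Cemip, a protein that degrades hyaluronan, was at 1.82 ± 0.117 and 1.43 ± 0.138 RPKM, with every one of the 6 toxicant libraries under all controls (log2 fold change -0.27 ± 0.07 SE, limma adjusted p = 0.193). It was named for the smallest p of its list, which favours such a gap, and 2.03% of all tested genes had one downward. Adamts1 and Adamts4, proteases that cleave aggrecan, brevican and versican, had -0.32 ± 0.11 and -0.35 ± 0.13, and in each the lowest control lay above 4 of 6 toxicant libraries. Mmp9 was under the filter and Mmp3 listed at 0 in every library.

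Receptors and binding partners were tested in 13 of 16 cases, with 8 below 0, 5 above and a median of -0.0076, which was 0.098 after median-ratio scaling. Nfasc, an adhesion molecule of axon initial segments, was at 14.5 ± 0.395 and 12.7 ± 0.850 RPKM, again with all 6 toxicant libraries under every control (-0.19 ± 0.07 SE, limma adjusted p = 0.216). Nfasc too was named for the smallest p of its list, which favours such a gap, and 2.03% of all tested genes had one downward. Midkine (Mdk), a ligand of Ptprz1, had -0.32 ± 0.12, and the Nogo receptor Rtn4r, which also binds chondroitin sulfate, -0.21 ± 0.12. Of 18 other proteoglycans tested, 14 were below 0, with a median of -0.086, which was 0.010 after median-ratio scaling and -0.17 without control 2. The glypican Gpc4 had -0.38 ± 0.13 and biglycan (Bgn) -0.21 ± 0.08, while decorin (Dcn) was at 3.46 ± 1.25 and 5.41 ± 1.60 RPKM (0.59 ± 0.23). Its transcript is 37.4% GC.

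**Figure D5:**
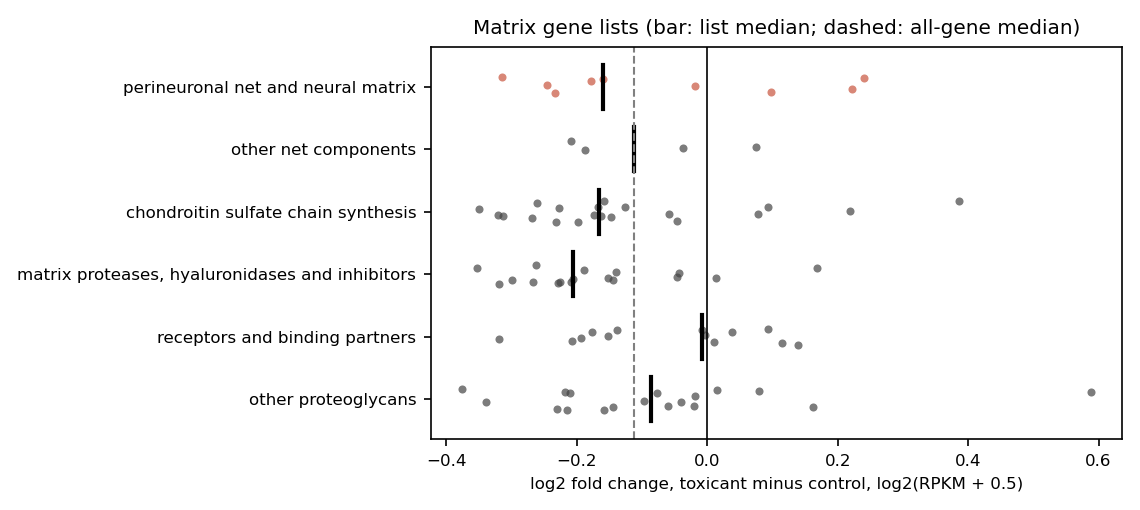
Log2 fold change (toxicant minus control) of every tested gene in the set of 9 and in the 5 related lists (points: genes; bars: list medians; dashed line: all-gene median of -0.11). List medians lie between -0.21 and -0.0076, on either side of the all-gene median.

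Markers of hippocampal neurons, interneurons, astrocytes and oligodendrocyte precursors, cells that make these proteins, had summed levels that overlapped between the 2 groups. Their part in the results was not tested. Over all tested genes, 70.0% had log2 fold changes below 0, and the median was -0.11. Of 10 hippocampal neuron markers 8 were below 0, with a median of -0.20. They summed to 237 to 294 RPKM in control and 198 to 251 RPKM in toxicant libraries. With the GC trend removed 9 were below 0, with a median of -0.19. Of 10 parvalbumin interneuron markers 6 were below 0, with a median of -0.077 and summed levels of 94.7 to 109 RPKM in control and 91.9 to 104.5 RPKM in toxicant libraries. Pvalb was at 18.9 ± 3.66 and 15.8 ± 2.35 RPKM (log2 fold change -0.24 ± 0.13 SE). Syt2, with the smallest p of this list, had -0.35 ± 0.08 (SE, limma adjusted p = 0.170). In Syt2, 5 of 6 toxicant libraries lay below the lowest control. Gad1, Kcnc1, Cox6a2 and Lhx6 were also below 0. Above 0 were 4 of the 10, namely Gad2 and Erbb4 (0.42 ± 0.15 and 0.42 ± 0.16 SE, limma adjusted p = 0.217 and 0.223), Tac1 and Kcnc2. The transcripts of these 4 are 40.6% to 45.7% GC, and those of the 6 below 0 are 47.3% to 57.4% GC. Of 10 astrocyte markers 8 were below 0 (median -0.15, summed 477 to 531 and 437 to 502 RPKM), and of 8 oligodendrocyte precursor markers 7 (median -0.15, summed 83.2 to 134 and 82.2 to 99.96 RPKM). Such sums weigh abundant markers most, among astrocyte markers Aldoc and Slc1a2, at 169 and 131 RPKM on average. Slc1a2 and Aqp4 were above 0 (0.15 ± 0.14 and 0.27 ± 0.17 SE). Gfap and S100b had -0.38 ± 0.11 and -0.30 ± 0.10 (SE, limma adjusted p = 0.203 and 0.207). The precursor marker Pdgfra was at 3.73 ± 0.209 and 3.54 ± 0.278 RPKM. Mature oligodendrocyte markers did not overlap in summed level, at 738 to 825 RPKM in control and 509 to 704 RPKM in toxicant libraries (median -0.50, 8 of 10 below 0). Nor did endothelial markers, at 41.9 to 51.2 and 36.0 to 40.5 RPKM (median -0.27, 9 of 10 below 0). All 10 microglia markers were below 0 (median -0.27), with summed levels of 121 to 160 and 100.8 to 125 RPKM. With the GC trend removed, list medians were 0.033 for parvalbumin interneurons, -0.095 for astrocytes and -0.017 for oligodendrocyte precursors. In that fit they were -0.34 for oligodendrocytes, -0.18 for endothelium and -0.14 for microglia, and the all-gene median was -0.019. No marker of these lists was at 0 in every library.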

How the data were processed

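The authors deposited 1 table of RPKM values, per the file headers, with 1 value per gene and library. Libraries were made from poly(A) RNA and sequenced as single reads, per the labels' protocols. For the aligner, counting program, strand, build and annotation no source used here gives a name. Whole reads were recovered by multiplying the deposited RPKM by exon length in GENCODE M21. Of the values above 0, 98.3% to 98.4% were then within 0.05 of a whole number, and 41675 of 41743 gene IDs were found there.

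Values were analysed as log2(RPKM + 0.5) for genes averaging 0.5 RPKM or more, with limma 3.58.1 in R 4.3.3 (lmFit, eBayes with trend, two-sided, threshold 0.05). The fit was also run on simulated reads, with the same spread beyond counting error in every gene and no GC trend between libraries. That run does not show how often the fit errs on data like these. The design named 12 samples, and identical columns were counted once. The animals differ, per the labels.

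The genes and lists were chosen with earlier results of these data known. Named were the 9 genes, the 3 genes of smallest p in each related list and the 2 most similar genes for each of the 9. Genes named outside this rule (Has1, Has2, Has3, Hapln3, Chst13, Mmp3, Mmp9, Gm4117 and markers) were chosen after their values were seen. Alternatives were other pseudocounts, filters, scalings, variance models, tests, covariates and left-out libraries. Removing the GC trend, and both fits that join control 2 with another choice, were added after seeing the data.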

Additional observations from a re-analysis of the deposited data

Results flagged for a closer look

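In a check for single values far from the rest of their group, made over 60 groups of libraries, 2 values stood out, where chance gives about 1 in 20 groups. Hapln2 was at 9.91 RPKM in toxicant 3, while the other 5 toxicant libraries lay between 6.31 and 7.54 RPKM. Chsy1 was at 2.72 RPKM in control 2, while the other 4 control libraries lay between 3.41 and 3.65 RPKM. None of the 9 net and matrix genes had such a value.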

How the results depend on the processing

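None of the 9 genes passed in any fit other than the one without control 2. Leaving out 1 library gave 0 to 1153 genes called higher, 0 to 3779 called lower and 0 to 5 of the 9 called, with a median of the 9 between -0.22 and -0.082. All the calls came without control 2. Without control 2 and with the GC trend removed, 471 genes were called higher and 426 lower. A pseudocount of 0.1 called 1 gene higher, and the 12 columns as deposited called 9 lower. The cause of these shifts was not tested.

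Acan and Ncan kept their direction in every alternative. With the genic read share as a covariate, Vcan was at -0.14, Hapln1 at -0.056, Ptprz1 at -0.13, Cspg5 at 0.095 and Tnc at 0.029. Without control 2 as well, Hapln1 was at 0.16, Acan at -0.14, Vcan at -0.078, Ptprz1 at -0.030, Hapln4 at 0.075, Cspg5 at 0.15 and Tnc at 0.14. In that fit the share nearly followed the group. Without control 2 and with the GC trend removed, Acan was at -0.075, Bcan at 0.015 and Tnc at 0.19. Cspg5 was at 0.0010 with quantile normalization. Tnc was at 0.14 with the GC trend removed, 0.041 with median-ratio scaling, 0.030 with the 12 columns as deposited, and between -0.093 and 0.016 when 1 library was left out. Median-ratio scaling brought the all-gene median from -0.11 to -0.017. Under a filter at 1 RPKM, Acan, Vcan and Tnc were not tested.

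With the replicate number as a block, 0 genes were called and the median of the 9 was -0.18. Deviations of same-numbered libraries had correlations of -0.30 to 0.62 over 5 pairs, and 1 of 5 controls was closest to its own number, so the numbers were not taken to pair the animals. Depth limits Acan and Tnc most, with means of 108 and 123 reads per library.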
